A study of Homo sapiens with 24 samples.

Results

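The myogenic regulatory factors are MYOD1, MYOG, MYF5 and MYF6, and their loci were examined here in the chromatin of RD cells. RD is a long-used cell line, labelled as fusion-negative rhabdomyosarcoma, a soft-tissue tumour with features of skeletal muscle that fails to finish differentiation. The members are all peaks of the 14 deposited peak lists that overlap 3 windows of the hg19 genome build. These windows are chromosome 11 from 17.69 to 17.8 Mb for MYOD1, chromosome 1 from 203.0 to 203.11 Mb for MYOG, and chromosome 12 from 81.05 to 81.17 Mb for MYF6 and MYF5, which are neighbours. Of 564552 peaks in the series, 239 met this rule: 78 at MYOD1, 113 at MYOG and 48 at MYF6 and MYF5. The groups compared were RD cells labelled TWIST2 KD (knockdown) and RD cells labelled control, each with 2 ChIP-seq libraries for each of 3 antibodies: H3K27ac, MYOD and SMARCA4 (an antibody to BRG1, another name of SMARCA4). A further 2 libraries used a Ty1 antibody on RD cells labelled 3xTy1-TWIST2, which carry epitope-tagged TWIST2. The H3K27ac, MYOD and Ty1 libraries belonged to the set labelled RD-1 and the SMARCA4 libraries to the set labelled RD-2. All groups come from 1 cell line, the method of knockdown is not given in the sources used here, and the labels do not say whether replicates were separate cultures. Any p-value therefore measures only the spread between these libraries. Peak lists do not measure RNA, so the level of TWIST2 after knockdown and the output of the 4 member genes were not measured.

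The 4 member genes encode basic helix-loop-helix transcription factors that bind the E-box, a short DNA motif of the form CANNTG. MYF5 and MYOD1 commit cells to the muscle lineage, MYOG drives terminal differentiation of myoblasts, and MYF6 (MRF4) acts in both early specification and mature fibres. The factors activate their own and each other's genes through promoters and distant enhancers, and MYF6 and MYF5 are controlled by a shared array of enhancers. TWIST2 is also a basic helix-loop-helix factor that binds E-boxes and is known as an inhibitor of muscle differentiation. H3K27ac is an acetylation of histone H3 found at active promoters and enhancers, and SMARCA4 is an ATPase of the SWI/SNF complexes, which move nucleosomes.

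The stretches directly before the start of MYOG, MYF5 and MYF6 are shown because MYOD binding near these genes is the subject of the comparison. Each has 250 bases and is credited to RefSeq, build GRCh38.p14, read 5′ to 3′ on the strand of the gene. Capitals mark every CANNTG E-box.
MYOG (chr1:203086013-203086262, minus strand): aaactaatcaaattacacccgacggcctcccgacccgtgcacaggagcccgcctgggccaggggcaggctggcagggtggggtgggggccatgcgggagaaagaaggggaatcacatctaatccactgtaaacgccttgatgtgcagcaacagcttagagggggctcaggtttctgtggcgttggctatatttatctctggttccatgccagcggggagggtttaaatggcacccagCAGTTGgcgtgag
MYF5 (chr12:80716662-80716911, plus strand): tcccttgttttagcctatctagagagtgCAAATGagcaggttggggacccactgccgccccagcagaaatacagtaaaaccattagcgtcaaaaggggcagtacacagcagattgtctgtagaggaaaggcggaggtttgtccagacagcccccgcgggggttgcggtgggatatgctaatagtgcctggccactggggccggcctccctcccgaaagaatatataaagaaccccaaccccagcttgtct
MYF6 (chr12:80707384-80707633, plus strand): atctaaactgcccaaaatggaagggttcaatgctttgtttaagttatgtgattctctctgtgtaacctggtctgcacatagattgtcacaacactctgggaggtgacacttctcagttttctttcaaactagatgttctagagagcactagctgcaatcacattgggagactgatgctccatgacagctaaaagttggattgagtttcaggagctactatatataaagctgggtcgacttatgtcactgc
The MYOG stretch holds 1 E-box, CAGTTG, which begins 13 bases before the start. The MYF5 stretch holds 1 E-box, CAAATG, which begins 222 bases before the start, and the MYF6 stretch holds 0. Of 35116 promoter stretches of the same length, 61.8% held a CANNTG (a pattern that reads the same on both strands) and 14% held its form CAGCTG, which none of the 3 stretches holds. These sequences are in another build than the peaks, so no peak is placed on them.

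H3K27ac covered less of the MYOD1 and MYOG windows in TWIST2 KD than in control libraries, and more of the MYF6 and MYF5 window. At MYOD1, H3K27ac peaks covered 28627 and 29116 bp in the TWIST2 KD libraries, against 33724 and 33610 bp in the control libraries. At MYOG they covered 25704 and 27417 bp in TWIST2 KD, against 28466 and 30052 bp in control. At MYF6 and MYF5 the order was the other way, with 11692 and 11980 bp in TWIST2 KD, against 6480 and 5814 bp in control. The groups did not overlap at any of the 3 windows. Separation was common for single regions over the genome. Of H3K27ac regions found in all 4 libraries, 45.4% were wider and 29.8% narrower in both TWIST2 KD libraries than in both controls. How many other windows of this length separated the groups was not counted. The means were 28871.5 ± 345.8 and 33667 ± 80.6 bp at MYOD1 (SD, n = 2 each, a TWIST2 KD over control ratio of 0.858). They were 26560.5 ± 1211 and 29259 ± 1121 bp at MYOG (SD, n = 2 each, ratio 0.908) and 11836 ± 203.6 and 6147 ± 470.9 bp at MYF6 and MYF5 (SD, n = 2 each, ratio 1.925). The exact two-sided permutation p was 0.333 for each (n = 2 each), which is the smallest value that 2 against 2 libraries allow, so no difference between these groups can pass 0.05. Over the whole genome the covered length was 107.7 and 105 Mb in TWIST2 KD, against 85.5 and 81.6 Mb in control, a ratio of 1.27. The MYOD1 and MYOG windows therefore had ratios below 1 where the ratio over all peaks was above 1.

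The number of H3K27ac peaks had the same order. It was 7 and 6 in TWIST2 KD against 8 and 8 in control at MYOD1, 8 and 8 against 10 and 10 at MYOG, and 4 and 4 against 3 and 2 at MYF6 and MYF5 (exact permutation p = 0.333 for each, n = 2 each). In both TWIST2 KD libraries the MYF6 and MYF5 count includes an edge peak, in region chr12:81049013-81050527, centred outside the window. Without that peak the groups would overlap in peak number there. The MYOG window was dense in these marks. Cut into 27613 tiles of the same length of 110 kb, the genome held 1.51 H3K27ac peaks per tile on average, and at most 3.24% of tiles in any library had as many as the MYOG window. For the MYOD1 window this share was at most 8.34%, and for the MYF6 and MYF5 window, with tiles of 120 kb, it was between 21.4% and 31.3%. Tiles counted peaks by their centre and the windows by any overlap.

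Peaks of the 4 H3K27ac libraries that overlapped by at least 1 bp were merged into regions, which gave 22 regions at the 3 windows. Of these, 15 (68.2%) had a peak in all 4 libraries and are called shared, against 49.1% of all 55905 merged H3K27ac regions. Only 1 region (4.55%) was found in both TWIST2 KD and no control library (KD-only), against 19.8% over the genome. A further 1 region (4.55%) was found in both control and no TWIST2 KD library (control-only), against 4.21% over the genome, and 5 had other patterns. Of the 15 shared regions, 6 were narrower in both TWIST2 KD libraries than in both control libraries, and 4 were wider. Over all 27442 shared regions of the genome, 29.8% were narrower and 45.4% were wider by the same rule. The 6 narrower regions were 3 at MYOD1 and 3 at MYOG. The 4 wider ones were 1 at MYOD1, 1 at MYOG and both shared regions at MYF6 and MYF5.

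**Figure D1:**
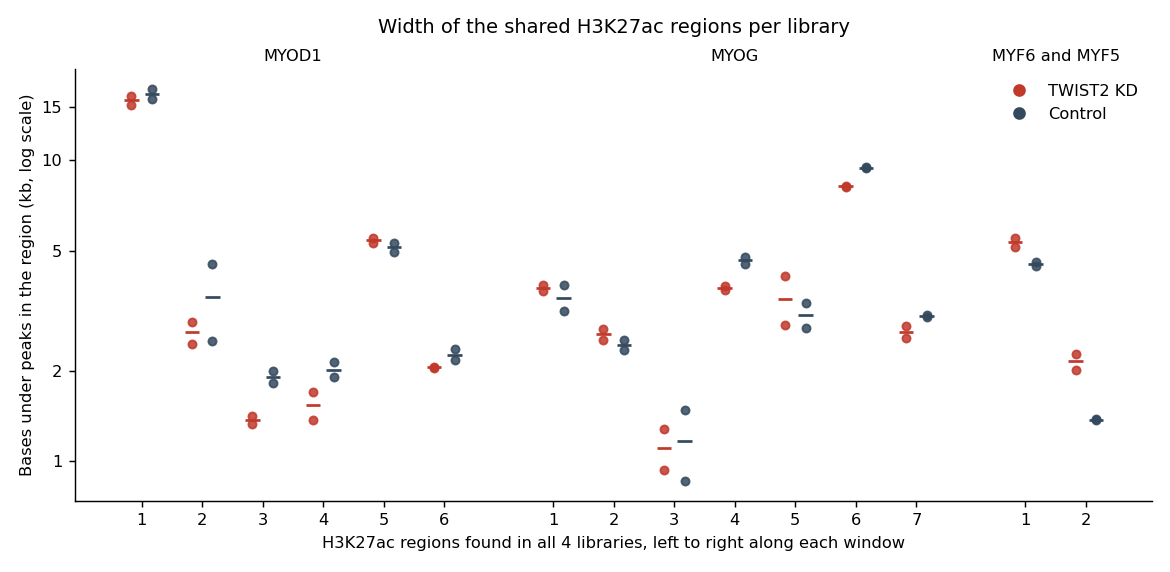
Bases under H3K27ac peaks (kb, log axis) in each of the 15 regions found in all 4 libraries, numbered from left to right along each window, with 1 point per library (TWIST2 KD red, left of control, dark) and a bar at the mean of 2 libraries. Both regions at MYF6 and MYF5 lie higher in TWIST2 KD, while 3 regions each at MYOD1 and MYOG lie lower in TWIST2 KD.

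The MYOD1 window was dominated by an H3K27ac domain at chr11:17700252-17717517. Peaks in it covered 15300 and 16314 bp in TWIST2 KD, against 17266 and 16033 bp in control, so the groups overlapped. It was among the broadest of the genome: its widest peak stood at the 99.7th and 99.8th percentile of peak width in the TWIST2 KD libraries and at the 99.75th and 99.66th in the control libraries. The next broadest domain, chr11:17739361-17745404, had 5327 and 5516 bp in TWIST2 KD, against 4975 and 5305 bp in control. It held no MYOD region in any of the 4 libraries, and no SMARCA4 or TWIST2 region, in contrast to the domain of 17266 bp.

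Among the shorter H3K27ac regions of the MYOD1 window, chr11:17718132-17722673 had 2908 and 2455 bp in TWIST2 KD, against 2503 and 4534 bp in control. The groups overlapped there, while 3 other regions found in all 4 libraries were narrower in TWIST2 KD. Region chr11:17728689-17730690 had 1331 and 1412 bp in TWIST2 KD, against 1997 and 1824 bp in control, a log2 ratio of -0.48. Region chr11:17735053-17737184 had 1697 and 1378 bp in TWIST2 KD, against 1906 and 2132 bp in control (log2 ratio -0.39). Region chr11:17755625-17757982 had 2064 and 2041 bp in TWIST2 KD, against 2358 and 2170 bp in control (log2 ratio -0.14). For comparison, the median log2 ratio over all shared regions was 0.07, with quartiles of -0.18 and 0.37. The control-only region chr11:17694179-17695925 had no peak in TWIST2 KD, against 1747 and 1612 bp in control, and region chr11:17759615-17760586 was found only in control replicate 1 (972 bp).

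**Figure D2:**
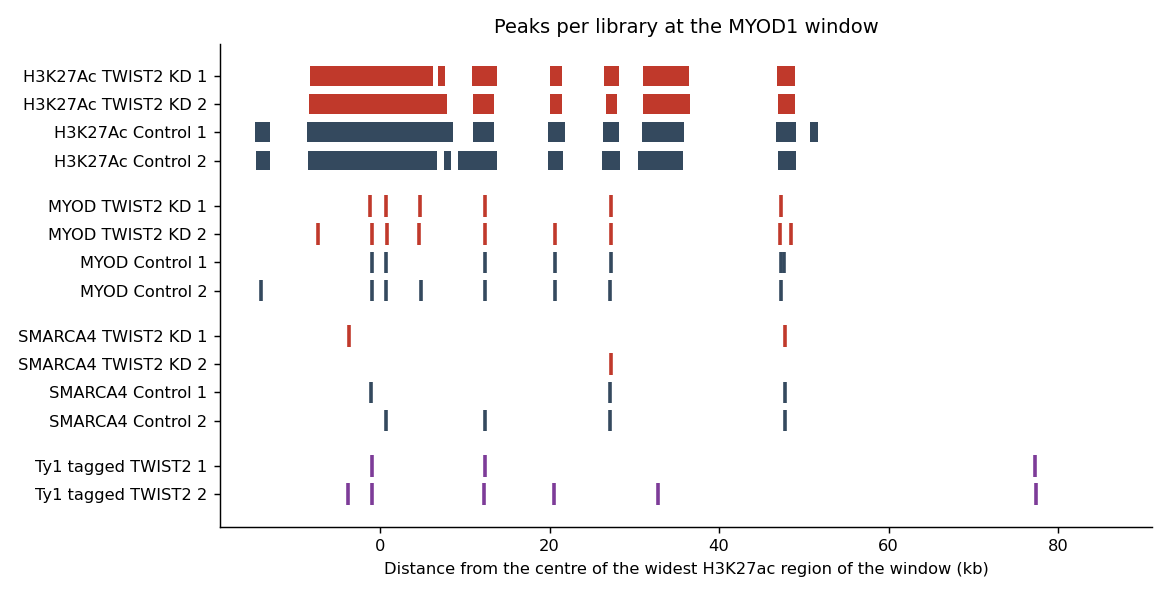
Peaks of each library at the MYOD1 window, by distance in kb from the centre of the domain chr11:17700252-17717517; H3K27ac peaks are bars drawn to width and the narrow MYOD, SMARCA4 and Ty1 peaks are ticks at their centres. TWIST2 KD rows (red) stand above control rows (dark) and tagged TWIST2 rows (purple) are at the bottom, and 5 MYOD ticks within the domain and to its right repeat at the same distance in all 4 MYOD libraries.

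MYOD, the product of MYOD1, had peaks in the MYOD1 window in both groups. Whether any lay on the gene itself is not given, as no hg19 annotation was used. There were 6 and 9 MYOD peaks in TWIST2 KD, against 7 and 8 in control (exact permutation p = 1, n = 2 each), where tiles of 110 kb held 1.71 on average. Merging gave 11 MYOD regions, of which 5 had a peak in all 4 libraries, and 0 were KD-only or control-only. Over the genome, 20.3% of merged MYOD regions were shared, 9.1% KD-only and 5.41% control-only. The shared sites were chr11:17707657-17708044, chr11:17709491-17709794, chr11:17721118-17721371, chr11:17735978-17736230 and chr11:17756012-17756306, and each lay in an H3K27ac region. The peaks of the 4 libraries were centred within 46 to 192 bp of each other at these 5 sites. Each MYOD list has 1 peak width (213 and 225 bp in TWIST2 KD, 159 and 179 bp in control), so width carries no information on the site. The site highest in the lists was chr11:17709491-17709794, at the 95.8th and 90.9th percentile of list position in TWIST2 KD and the 99th and 97.7th in control. The files do not say what the order of the lists means, and positions in lists of different length were not compared between groups.

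Tagged TWIST2 had 3 and 6 peaks at the MYOD1 window, and 3 merged regions, called TWIST2 regions, were found in replicates 1 and 2 alike, as 50.3% of merged Ty1 regions were over the genome. The one at chr11:17707833-17708091 overlapped the shared MYOD site at chr11:17707657-17708044 and lay at the 93.7th and 92.1st percentile of the Ty1 lists. The one at chr11:17721089-17721371 was centred 14 bp from the centre of the shared MYOD site chr11:17721118-17721371. The last, chr11:17786086-17786341, stood at the 96th and 94th percentile of the Ty1 lists and overlapped no peak of the other antibodies. The domain chr11:17739361-17745404 had a Ty1 peak in replicate 2 only. No Ty1 library of untagged cells was used here, so unspecific Ty1 peaks cannot be told apart from bound TWIST2.

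SMARCA4 had fewer peaks at the MYOD1 window in TWIST2 KD, with 2 and 1, against 3 and 4 in control (exact permutation p = 0.333, n = 2 each). The ratio of the means was 0.429, where that of whole SMARCA4 lists was also below 1, at 0.738. These lists held 12518 and 14676 peaks in TWIST2 KD, against 11835 and 25013 in control. None of the 6 SMARCA4 regions had a peak in all 4 libraries, which over the genome was so for 1.11%. At chr11:17735899-17736178, on a shared MYOD site, the deposited HOMER tag value (tags per peak normalized by the authors to 10000000 tags) was 6.57 in TWIST2 KD replicate 2, against 10.5 and 10 in control, with no peak in TWIST2 KD replicate 1. At chr11:17756522-17756716 it was 6.93 in TWIST2 KD replicate 1, against 14.8 and 10.5 in control, with no peak in TWIST2 KD replicate 2. The remaining 4 regions had a peak in 1 library each: chr11:17705182-17705322 in TWIST2 KD replicate 1, chr11:17707788-17707982 in control replicate 1, and chr11:17709523-17709681 and chr11:17721196-17721354 in control replicate 2. The 3 found in a control library alone each lay on a shared MYOD site.

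At MYOG, the broadest H3K27ac domain was chr1:203052736-203062361, and it was shorter in TWIST2 KD. Its peaks had 8212 and 8182 bp in TWIST2 KD, against 9396 and 9484 bp in control, a log2 ratio of -0.20. The difference lay at 1 end: the peaks began at 203053981 and 203054180 in TWIST2 KD, against 203052781 and 203052736 in control. At the other end they reached 203062192 and 203062361 in TWIST2 KD, against 203062176 and 203062219 in control. The domain stood at the 98.3rd percentile of width in each TWIST2 KD library and at the 98.5th and 98.6th in control. It held 3 MYOD regions and 2 SMARCA4 regions, but no TWIST2 region.

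The MYOD site chr1:203055228-203055511 in this domain was found in all 4 libraries. A neighbouring site, chr1:203058824-203059100, had a peak in TWIST2 KD replicate 1 and both controls, and chr1:203060887-203061217 in TWIST2 KD replicate 1 and control replicate 2. SMARCA4 peaks lay on the sites that begin at 203055228 and 203058824, and not on the last. At chr1:203055245-203055403 the SMARCA4 tag value was 9.82 in control replicate 2, with no peak in the other 3 libraries. At chr1:203058933-203059091 it was 4.99 in TWIST2 KD replicate 1, against 10.3 in control replicate 2.

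**Figure D3:**
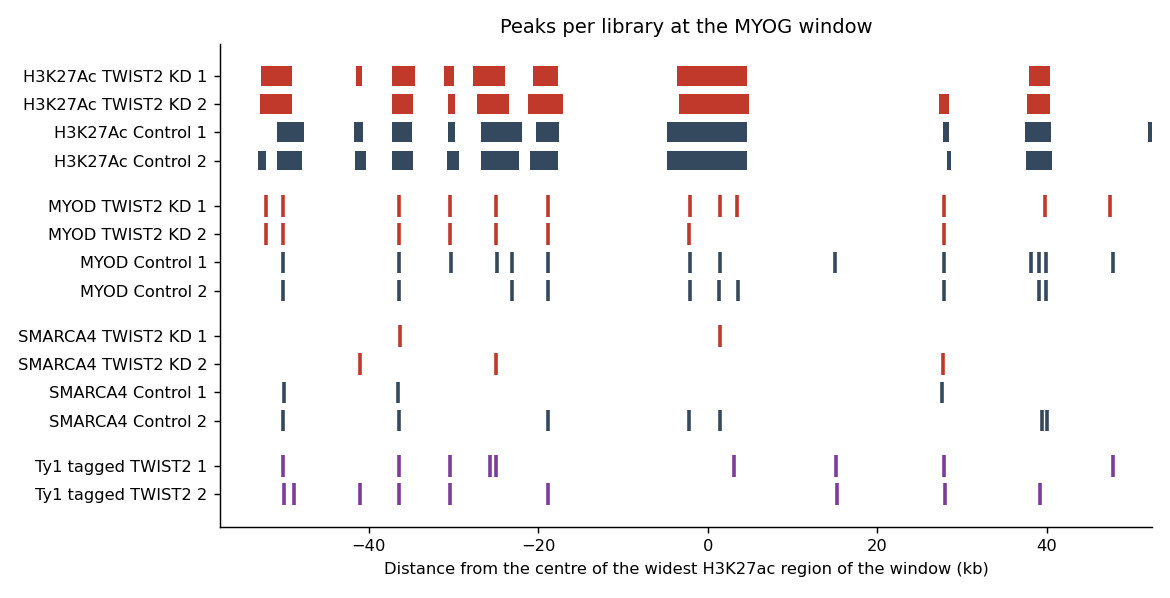
Peaks of each library at the MYOG window, by distance in kb from the centre of the domain chr1:203052736-203062361, drawn as in the map of the MYOD1 window (TWIST2 KD red, control dark, tagged TWIST2 purple). The left end of the central domain lies further right in both TWIST2 KD rows, and a MYOD tick in each control row at the right end of an H3K27ac peak to the left has no counterpart in TWIST2 KD.

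Some MYOD sites that differed between groups lay at the changing edges of H3K27ac regions. Region chr1:203029896-203035600 had 3721 and 3828 bp in TWIST2 KD, against 4780 and 4521 bp in control (log2 ratio -0.30). Its peaks ended at 203033616 and 203034148 in TWIST2 KD, against 203035600 and 203035294 in control. The control-only MYOD region chr1:203034397-203034584 lay in the stretch that H3K27ac peaks covered in both control libraries and in neither TWIST2 KD library. It had list percentiles of 74.7 and 88.3 in the control MYOD lists and overlapped no TWIST2 region.

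The opposite arrangement was found at the start of the window. In region chr1:203004542-203009932 the main H3K27ac peak began at 203004849 and 203004680 in TWIST2 KD, against 203006783 and 203006720 in control, where replicate 2 had a further peak of 902 bp from 203004542 to 203005443. The KD-only MYOD region chr1:203005318-203005557 lay wholly within the TWIST2 KD peaks and at list percentiles of 60.8 and 77.4. In control replicate 1 it lay outside any H3K27ac peak, and in control replicate 2 it overlapped the end of the peak of 902 bp. These are single sites, noticed after their values were seen, and were not tested. The region as a whole did not separate the groups, with 3694 and 3858 bp in TWIST2 KD, against 3150 and 3844 bp in control.

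The MYOG window as a whole had 12 and 8 MYOD peaks in TWIST2 KD, against 14 and 10 in control (exact permutation p = 0.667, n = 2 each), and the groups overlapped. At most 2.61% of tiles of 110 kb in any MYOD library held as many peaks. Of 17 MYOD regions, 5 were shared, 1 was KD-only and 2 were control-only. Over the 3 windows together, 12 of 35 MYOD regions (34.3%) were shared, 1 (2.86%) was KD-only and 3 (8.57%) were control-only. The same shares of all merged MYOD regions of the genome were 20.3%, 9.1% and 5.41%. The control-only region not yet described, chr1:203096542-203096749, lay inside an H3K27ac region, chr1:203094974-203098100, which had 2563 and 2809 bp in TWIST2 KD, against 3027 and 3057 bp in control. The site chr1:203026992-203027370 had MYOD in both TWIST2 KD libraries and control replicate 1, and its centre lay 22 bp from that of the TWIST2 region chr1:203027039-203027278. TWIST2 region chr1:203072610-203072892 lay outside H3K27ac and met a MYOD peak of control replicate 1 only.

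Peaks of all 4 antibodies met at chr1:203021014-203021243 in the MYOG window, a MYOD site in all 4 libraries, at the 98.8th and 97th percentile of the lists in TWIST2 KD and the 99th and 98.3rd in control. The 4 MYOD peaks were centred within 26 bp of each other, and 15 bp from the centre of the TWIST2 region chr1:203021003-203021285. SMARCA4 peaks at chr1:203020914-203021265 had 5.54 tags in TWIST2 KD replicate 1, against 10.3 and 13.6 in control, and none in TWIST2 KD replicate 2. The surrounding H3K27ac region, chr1:203020251-203023009, had 2759 and 2538 bp in TWIST2 KD, against 2343 and 2529 bp in control, so it was wider in TWIST2 KD by a small margin (log2 ratio 0.12).

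At chr1:203007349-203007615, likewise, a MYOD site of all 4 libraries lay 34 bp from the centre of the TWIST2 region chr1:203007386-203007646. The single control-only SMARCA4 region of the 3 windows, chr1:203007423-203007628, lay on it. Its tag values were 7.07 and 7.59 in control, with no peak in either TWIST2 KD library. Over the genome, 6.68% of merged SMARCA4 regions were control-only and 1.91% were KD-only, so 1 of 20 is a share close to the background. A further MYOD site of this kind, chr1:203085266-203085503, lay 91 bp from the centre of the TWIST2 region chr1:203085342-203085609 and had SMARCA4 in TWIST2 KD replicate 2 (3.41 tags) and control replicate 1 (5.35 tags). The merged H3K27ac region there had a peak of 1153 bp in TWIST2 KD replicate 2 and none in replicate 1, against 636 and 501 bp in control. Only the peak of TWIST2 KD replicate 2 covered the whole site. The peak of control replicate 1 began inside the site, at 203085345. That of control replicate 2 began beyond it, at 203085729.

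The remaining MYOD site found in all 4 libraries at MYOG, chr1:203038548-203038827, overlapped no TWIST2 region, and the nearest TWIST2 centre was 11529 bp away. It stood at the 72.4th and 74th percentile of the MYOD lists in TWIST2 KD and the 88.6th and 81.8th in control. The H3K27ac region around it, chr1:203036380-203040492, had 2839 and 4113 bp in TWIST2 KD, against 2766 and 3356 bp in control, so the groups overlapped. SMARCA4 had a peak there in control replicate 2 only (5.8 tags).

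SMARCA4 had 2 and 3 peaks at MYOG in TWIST2 KD, against 3 and 7 in control (exact permutation p = 0.667, n = 2 each). The groups overlapped, since control replicate 1 and TWIST2 KD replicate 2 had 3 peaks each. The difference of -2.5 peaks between the means became -4.5 without control replicate 1 and -0.5 without control replicate 2.

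The MYF6 and MYF5 window had few sites, and H3K27ac peaks covered more bases in TWIST2 KD at each of its 4 H3K27ac regions. Region chr12:81071448-81077036 had 5500 and 5170 bp in TWIST2 KD, against 4596 and 4441 bp in control (log2 ratio 0.24). Region chr12:81095727-81098004 had 2019 and 2278 bp in TWIST2 KD, against 1383 and 1373 bp in control (log2 ratio 0.64), which is above the upper quartile of 0.37 of all shared regions. Region chr12:81121280-81125421 had 3645 and 4123 bp in TWIST2 KD, against 501 bp in control replicate 1 and no peak in control replicate 2. Because of that peak of 501 bp, it is not counted as KD-only. The KD-only region, chr12:81049013-81050527, had 1462 and 1396 bp in TWIST2 KD and lies across the edge of the window, mostly outside it.

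**Figure D4:**
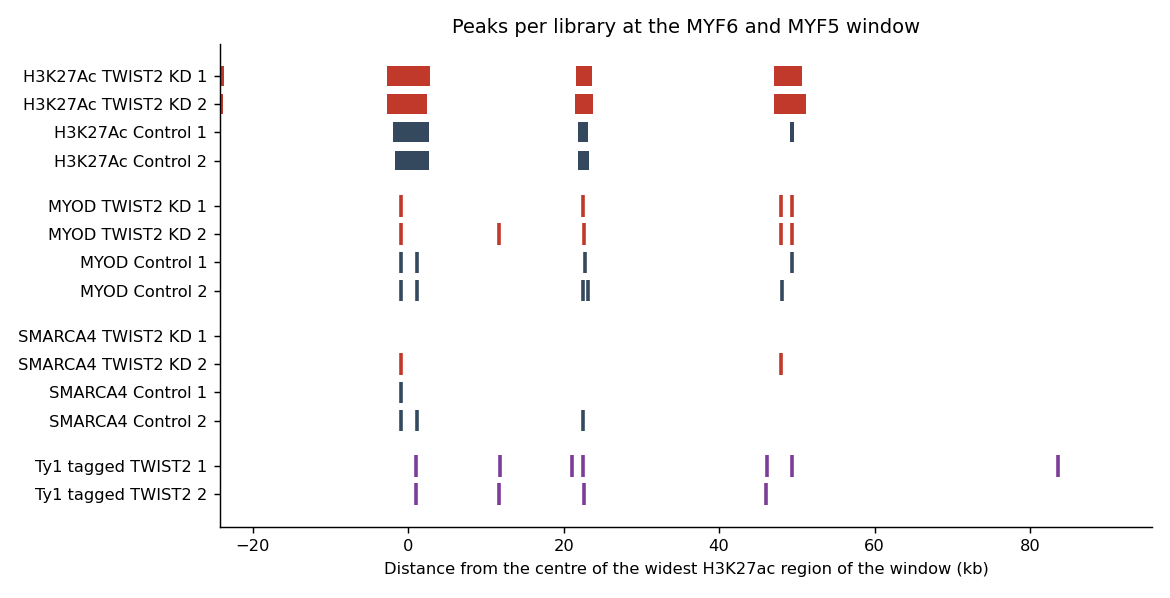
Peaks of each library at the MYF6 and MYF5 window, by distance in kb from the centre of the region chr12:81071448-81077036, drawn as in the other maps (TWIST2 KD red, control dark, tagged TWIST2 purple). The H3K27ac region at the right has 3645 and 4123 bp in TWIST2 KD, and the MYOD tick of both control rows just right of the centre, where tagged TWIST2 also lies, is missing from the TWIST2 KD rows.

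The number of MYOD peaks at MYF6 and MYF5 was 4 and 5 in TWIST2 KD, and 4 and 5 in control (exact permutation p = 1, n = 2 each). Their positions differed in part. Region chr12:81073187-81073445 was shared by all 4 libraries, at the 98.2nd and 88.9th percentile of the lists in TWIST2 KD and the 97.5th and 95.7th in control. SMARCA4 lay on it at chr12:81073204-81073432, with 7.31 tags in TWIST2 KD replicate 2, against 13.3 and 11.6 in control, and no peak in TWIST2 KD replicate 1. The other shared site, chr12:81096654-81097006, was centred 35 bp from the TWIST2 region chr12:81096660-81096930. TWIST2 region chr12:81085798-81086119 met a MYOD peak of TWIST2 KD replicate 2 only, and no H3K27ac peak. In the broadened H3K27ac region chr12:81121280-81125421, MYOD site chr12:81122074-81122397 had a peak in both TWIST2 KD libraries and control replicate 2. The site beside it, chr12:81123446-81123726, had a peak in both TWIST2 KD libraries and control replicate 1.

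The control-only MYOD region of this window, chr12:81075231-81075419, overlapped the TWIST2 region that stood highest in the Ty1 lists among those of the 3 windows. That TWIST2 region, chr12:81075086-81075346, stood at the 98.1st and 98.8th percentile of the Ty1 lists. The centres of the MYOD and TWIST2 regions were 109 bp apart. MYOD stood there at the 75.4th and 72.7th list percentile in control and had no peak in TWIST2 KD. H3K27ac covered the site in all 4 libraries, and SMARCA4 had a peak of 7.81 tags in control replicate 2 only. Over the genome, 21.0% of control-only MYOD regions overlapped a TWIST2 region, and of the 3 at these windows 1 did.

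At the 3 windows together there were 12 TWIST2 regions among 26 merged Ty1 regions (46.2%). Of these 12, 10 overlapped a MYOD region of any library, against 48.1% of all TWIST2 regions, 8 an H3K27ac region (50.3% of all), and 7 a SMARCA4 region (27.1% of all). The 2 that overlapped none were chr11:17786086-17786341 and chr12:81120172-81120496, and over the genome this share was 38.3%. TWIST2 regions chr1:203072610-203072892 and chr12:81085798-81086119 met MYOD in 1 library only. The windows were denser in peaks than the genome, so its shares are not a like baseline. MYOD had 7.5, 11 and 4.5 peaks per library at MYOD1, MYOG, and MYF6 and MYF5. Tiles of the same length held 1.71, 1.71 and 1.87 on average. The part of density in the overlaps was not tested. Of the 12 shared MYOD regions, 6 overlapped a TWIST2 region, against 46.6% of all shared MYOD regions. Of the 15 shared H3K27ac regions, 7 did, against 52.0%. Tagged TWIST2 cells were neither TWIST2 KD nor control cells, so these overlaps do not show where untagged TWIST2 lay.

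All 20 SMARCA4 regions of the 3 windows lay at a merged H3K27ac region, against 74.2% of SMARCA4 regions over the genome, and 17 at a merged MYOD region, against 67.6%. Of the 35 MYOD regions, 31 lay at a merged H3K27ac region, against 72.9% over the genome. The windows held 7.25, 9 and 3.25 H3K27ac peaks per library at MYOD1, MYOG, and MYF6 and MYF5. Tiles of the same length held 1.51, 1.51 and 1.64, so the genome shares are not a like baseline. Merged regions pool peaks of any library, and SMARCA4 came from the RD-2 set. An overlap therefore need not lie in the same library or group. Regions of 1 window are not independent of each other, and no test was made on these shares.

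SMARCA4 tag values as deposited were lower in TWIST2 KD at the sites with a peak in both groups, but not at all of them once scaled to each library's median. Of the 20 regions, 6 had a peak in at least 1 library of each group. All 6 had a peak in only 1 TWIST2 KD library, so at none did both TWIST2 KD libraries give a value. Regions chr1:203058933-203059091 and chr1:203085140-203085425 also had only 1 control value. At all 6 the TWIST2 KD value was below each control value. Over the genome, each TWIST2 KD value was below each control value at 85.7% of 8120 regions with a peak in both groups. The share at these loci is close to that background. The median tag value over all peaks was 4.99 and 4.38 in the TWIST2 KD libraries, against 7.07 and 6.69 in control. Divided by these medians, each TWIST2 KD value was below each control value at 4 of the 6 regions, against 40.0% of the 8120 regions over the genome; this scaling was chosen after seeing the data. At the other 2 regions it was not: the value at chr11:17735899-17736178 was 1.5 in TWIST2 KD replicate 2, against 1.49 and 1.49 in control, and that at chr1:203085140-203085425 was 0.78 in TWIST2 KD replicate 2, against 0.76 in control replicate 1. Among the 4, the value at chr1:203020914-203021265 was 1.11 in TWIST2 KD replicate 1, against 1.46 and 2.03 in control. The share of tags in peaks, given in the file headers as approximate enrichment efficiency, was 0.65% and 0.7% in TWIST2 KD, against 0.88% and 1.83% in control. The total numbers of tags were 36095336 and 41066933 in TWIST2 KD, against 46690705 and 44810601 in control. SMARCA4 peaks were 141 and 145 bp wide in TWIST2 KD, against 195 and 159 bp in control, and tags were counted per peak. The fragment lengths given with the lists were 140 and 144 bp in TWIST2 KD, against 82 and 132 bp in control. The part of these differences in the SMARCA4 values was not tested. Whole lists held 12518 and 14676 SMARCA4 peaks in TWIST2 KD, against 11835 and 25013 in control.

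**Figure D5:**
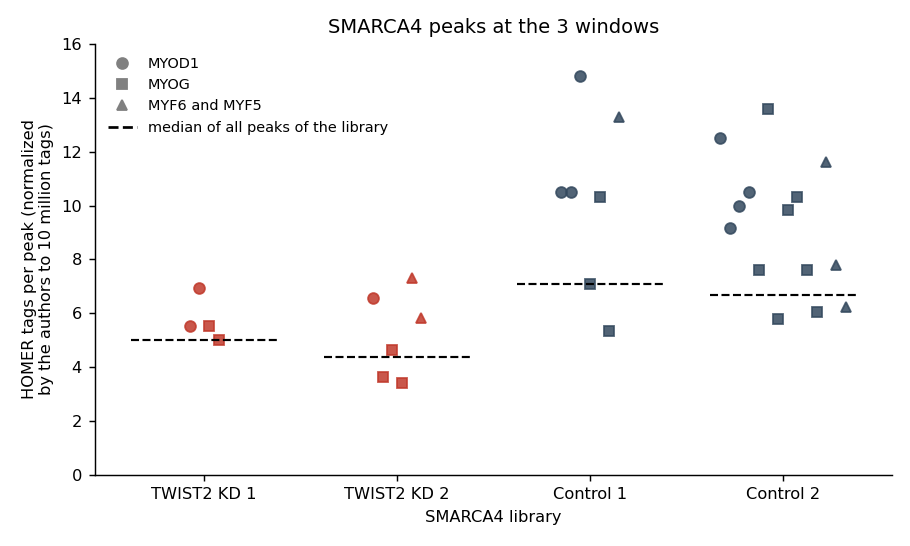
HOMER tag values of the SMARCA4 peaks at the 3 windows, 1 symbol per peak and 1 column per library (TWIST2 KD red, left of control, dark; circles MYOD1, squares MYOG, triangles MYF6 and MYF5), with a dashed line at the median of all peaks of that library. No TWIST2 KD peak exceeds 7.31 tags, and the dashed lines are lower in TWIST2 KD too, at 4.99 and 4.38 against 7.07 and 6.69.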

How the data were processed

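The series has 24 ChIP-seq samples, of which 14 had a peak list; the other 10, all inputs, were not used here. Groups were read from the sample titles. Per the submitters' processing notes, the tools were HOMER 4.4, bedtools 2.29.2, Bowtie2 2.3.4.3 and SAMtools 0.1.19, and the build GRCh37 (hg19). The peaks are not in GRCh38: only 6.61% to 7.39% of 35116 GRCh38 promoters overlapped an H3K27ac peak, against 4.49% to 5.35% after a shift of 1000000 bp. No hg19 annotation was used here, so no exon, promoter or distance to a gene is given. The lists deposited by the authors for H3K27ac, MYOD and Ty1 hold positions only, with no score, so their depth is unknown. Per the file headers, SMARCA4 peaks were called by HOMER against input with a false discovery threshold of 0.001 and a required 4-fold tag excess over input and over 10000 bp around the peak. In the deposited SMARCA4 lists, columns give a normalized tag signal, a score, a fold ratio over input and a p-value per peak. Of these, tags were reported, and the score served only to take equal numbers of peaks per library; fold and p-value were not used.

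Peaks overlapping by at least 1 bp were merged per antibody with Python 3.11.15, numpy 2.4.6 and pandas 2.3.3 (plots: matplotlib 3.10.9), and the class calculation was checked on simulated lists. Named were the widest H3K27ac region of each window, all KD-only and control-only regions, MYOD regions of all 4 libraries and TWIST2 regions that overlap MYOD or SMARCA4. Other regions were named after their values were seen. Numbers and covered bases per library were compared by an exact permutation test. The windows and rules were chosen with earlier results of these data known.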

Additional observations from a re-analysis of the deposited data

How the results depend on the processing

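Of 12 differences between TWIST2 KD and control (peak number for 3 antibodies and covered H3K27ac bases, at 3 windows), none changed sign under widening each window by 50 kb, narrowing it by 20 kb, taking the same number of peaks per library, leaving out a library or the replicate block. Of the 96 values, 82 kept the sign or, where the MYOD difference was 0, stayed at 0. A further 4 became 0, and 10 were above or below a difference of 0. Much of this outcome was fixed in advance, so these counts do not measure how stable the differences are. A difference of 0 has no sign to change. Where the groups did not overlap, leaving out 1 library could not reverse their order, and the replicate block returns the same difference. MYOD differences of 0 became -2 at MYOD1 and 1 at MYF6 and MYF5 in the widened windows. Leaving out 1 library gave -1.5 to 1.5 MYOD peaks at MYOD1, -4 to 0 at MYOG and -0.5 to 0.5 at MYF6 and MYF5, with 0 at MYOG without TWIST2 KD replicate 2 or control replicate 1. For SMARCA4 it gave -2.5 to -1.5 peaks at MYOD1, -4.5 to -0.5 at MYOG and -2 to 0 at MYF6 and MYF5. The covered H3K27ac difference ranged from -5040 to -4551 bp at MYOD1, -3555 to -1842 at MYOG and 5356 to 6022 at MYF6 and MYF5. Narrowed windows gave differences of -0.5, -0.5 and 0.5 H3K27ac peaks at MYOD1, MYOG, and MYF6 and MYF5, for which the groups overlapped; their covered length differed by -2879, -1548 and 5220.5 bp and widened ones -8659, -10100 and 14043 bp. With equal numbers of peaks the values were -5191.5, -4061 and 5689 bp, and 3 control-only H3K27ac regions in place of 1. For this the widest H3K27ac peaks of each list were kept, so narrow peaks were dropped mostly from the longer TWIST2 KD lists. Such a cut favours lower TWIST2 KD values and more control-only regions, so it is no independent check. MYOD lists were cut by list order, whose meaning is not given. Leaving out 1 library gave 1 to 2 KD-only and 1 to 3 control-only regions for H3K27ac. The MYOD counts were 2 to 4 and 4 to 7 (none of these runs gave the 1 and 3 of all libraries). The SMARCA4 counts were 0 to 3 and 3 to 9. These classes, and the wider and narrower calls, set a condition on every library. Leaving 1 out loosens them, so their counts could hardly fall. Without 1 library, shared H3K27ac regions wider in TWIST2 KD numbered 4 to 7 and narrower ones 7 to 8 (4 and 6 with all libraries). This alternative was chosen after seeing the data (7 wider without control replicate 2). The 6 SMARCA4 regions with lower tag values in TWIST2 KD became 4 with values divided by library medians, and 3 to 5 without 1 library (3 without either TWIST2 KD library), where fewer regions have a peak in both groups; these too were chosen after seeing the data. Merging peaks within 500 bp and setting MYOD and SMARCA4 peaks to 200 bp left every class count within 1.5 times. With the replicate number as a block the differences were by construction the same (-4795.5, -2698.5 and 5689 covered bp), and p could not be below 0.5; pairing therefore changed no call. Same-numbered libraries did not deviate together (correlation over merged regions 0.005 for H3K27ac, 0 for MYOD and -0.031 for SMARCA4). Peak lists show presence above a threshold, so a missing peak may lie just under it, and lists without tag counts give no depth to judge this by.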
